A study of Drosophila melanogaster with 12 samples.

Results

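The genes described here are 10 regulators of actin filament turnover, chosen by name and found by their gene symbols among the 17868 genes of the deposited count table. They are cib (Dmel_CG4944), chic (Dmel_CG9553), tsr (Dmel_CG4254), capt (Dmel_CG33979), twf (Dmel_CG3172), SCAR (Dmel_CG4636), Arp2 (Dmel_CG9901), Arp3 (Dmel_CG7558), ena (Dmel_CG15112) and Fim (Dmel_CG8649). The study sequenced polyadenylated RNA from Drosophila melanogaster embryos of 4 genotypes with 3 libraries each, which are biological replicates per the series' design text: Drp1SG;SOD2i, Drp1SG, SOD2i and Control. Drp1 is the dynamin-family gene required for mitochondrial fission, and Sod2 is the gene for the manganese superoxide dismutase inside mitochondria. The name SOD2i was taken to mean knockdown of Sod2 by RNA interference. The labels do not say what SG stands for, which driver was used, or what the Control embryos carry. In all groups embryos were picked by hand so that cellularizing and gastrulating ones were equally represented, and each replicate was a pool from several collections. Poorly laying genotypes were collected over a longer window than the others, but are not named, so window and genotype cannot be told apart.

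Actin filaments grow at one end from a pool of monomers and are taken apart at the other. Profilin, thymosin-like proteins, cyclase-associated protein, twinfilin and cofilin bind monomers or ageing filaments and so set the size of that pool, the Arp2/3 complex starts new branches when a WASP-family protein such as SCAR activates it, and Ena/VASP proteins and cross-linkers shape the growing filaments. In the early fly embryo this machinery works at the furrow canals that separate the nuclei into cells and at the apical surface of the cells that fold inward at gastrulation.

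Levels are given as CPM, a gene's counts relative to the scaled total of its library, and means carry ± SD over 3 libraries. Log2 fold changes carry ± SE, and adjusted p values come from the quasi-likelihood test of edgeR with Benjamini-Hochberg adjustment over the 9863 genes tested. A gene was called at an adjusted p under 0.05. Libraries held 61757756 to 91949037 reads in genes, and Sod2 and Drp1 served as the check of the labels. Sod2 stood at 3.04 ± 0.513 CPM in Drp1SG;SOD2i, 49.5 ± 3.58 CPM in Drp1SG, 1.82 ± 0.486 CPM in SOD2i and 50.8 ± 0.691 CPM in Control. Drp1 stood at 43.6 ± 0.645 CPM in Drp1SG;SOD2i, 84.0 ± 17.5 CPM in Drp1SG, 22.1 ± 3.02 CPM in SOD2i and 36.0 ± 2.41 CPM in Control. Drp1 was not called in Drp1SG;SOD2i against Control (log2 0.28, adjusted p = 0.248) and was lower than in Drp1SG (log2 -0.94, adjusted p = 0.00126). It was also lower in SOD2i than in Control (log2 -0.71, adjusted p = 0.00335). Sod2 was higher in Drp1SG;SOD2i than in SOD2i (log2 0.74, adjusted p = 0.0126). Neither gene was thus at 1 level across the genotypes that share its label, and the part of this in the interactions below was not tested. Of the markers of the labelled stages, slam averaged 1515, 977, 1887 and 1331 CPM in the same order of genotypes. Its libraries spanned 1371 to 1696 CPM in Drp1SG;SOD2i and 778 to 1091 CPM in Drp1SG. In SOD2i they spanned 1846 to 1914 CPM, and in Control 827 to 2047 CPM. slam was not called against Control in any genotype, nor in Drp1SG;SOD2i against either single genotype. The 5 ventral furrow genes twi, sna, fog, T48 and mist were all tested. Their summed level was 472 to 502 CPM in Drp1SG;SOD2i, 492 to 539 CPM in Drp1SG, 584 to 665 CPM in SOD2i and 557 to 582 CPM in Control. Against Control 2 of the 5 were called lower in Drp1SG;SOD2i, 1 lower in Drp1SG and 1 higher in SOD2i, and 3 were called lower in Drp1SG;SOD2i than in SOD2i. The cellularization genes nullo, bnk and Sry-alpha are listed at 0 in all 12 libraries.

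Per length of transcript, the members spanned a wide range. In Control, tsr had 1467 ± 221 CPM per kilobase of annotated exon and chic had 444 ± 51.6 CPM per kilobase, so the cofilin and profilin genes stood apart from all the others. Arp3 (84.7 ± 3.78), ena (76.8 ± 2.66), capt (72.6 ± 5.22), cib (61.1 ± 5.27) and Arp2 (53.6 ± 5.45 CPM per kilobase) formed a middle group in which ena overlapped capt and cib overlapped Arp2, while the libraries of Arp3 and ena, and of capt and cib, did not overlap. SCAR (6.45 ± 0.738) and twf (3.65 ± 0.485 CPM per kilobase) were the lowest of the members with reads. The level of cib moved through this order with genotype, at 41.8 ± 3.41 CPM per kilobase in Drp1SG;SOD2i, 29.4 ± 3.69 in Drp1SG, 16.0 ± 6.81 in SOD2i and 61.1 ± 5.27 in Control.

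**Figure D1:**
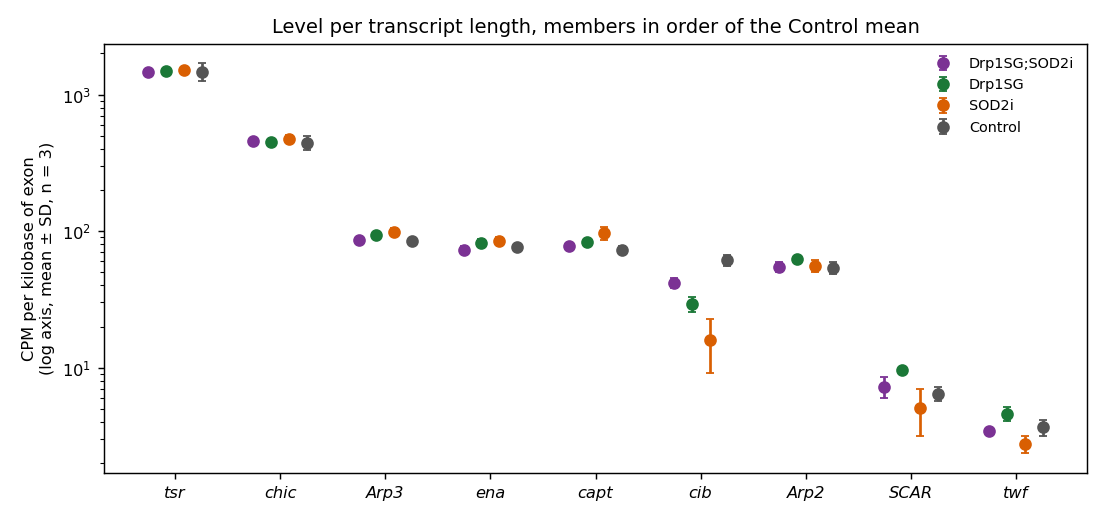
Level of 9 members as CPM per kilobase of exon on a log axis, with points at the mean and bars of 1 SD over 3 libraries for Drp1SG;SOD2i, Drp1SG, SOD2i and Control. tsr and chic lie highest, SCAR and twf lowest, and cib is spread most between genotypes, with 16.0 CPM per kilobase in SOD2i against 61.1 in Control.

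Among the monomer binders, cib was lower in both single genotypes and intermediate in the combined one. cib encodes Ciboulot, a thymosin-beta-like protein that binds actin monomers and feeds them into filament growth. Its level was 80.2, 73.7 and 68.1 CPM in the Drp1SG;SOD2i libraries, 44.5, 56.3 and 55.3 CPM in Drp1SG, 41.7, 18.3 and 25.0 CPM in SOD2i, and 109, 117 and 98.3 CPM in Control. Every Control library was above every other library, every Drp1SG;SOD2i library was above every library of a single genotype, and Drp1SG lay above SOD2i without overlap. SOD2i replicate 1 was the highest of its group, and the SOD2i libraries had the widest relative spread of any genotype for this gene, with a coefficient of variation of 42.6%. These are RNA levels of whole embryos, in which fewer cells of a type and less RNA per cell cannot be told apart.

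The fall of cib was called in Drp1SG, at -1.06 ± 0.23 on the log2 scale against Control (adjusted p = 0.00839), where its mean was 52.0 ± 6.53 CPM against 108 ± 9.33 CPM in Control. In SOD2i the log2 fold change was -1.93 ± 0.24 (adjusted p = 0.000143), with a mean of 28.3 ± 12.1 CPM, 26.2% of Control. In Drp1SG;SOD2i, cib averaged 74.0 ± 6.04 CPM, 68.4% of Control, a log2 fold change of -0.55 ± 0.23 that was not called (adjusted p = 0.163), although all 3 libraries lay below all 3 Control libraries. The call there depended on the fit. It was made when only these 2 genotypes were fitted (adjusted p = 0.0183), without SOD2i replicate 1 (adjusted p = 0.0392), and in the authors' deposited table (log2 fold change -0.54, adjusted p = 0.000199).

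cib was higher in Drp1SG;SOD2i than in SOD2i, by 1.39 ± 0.23 on the log2 scale (adjusted p = 0.00216, higher in 3 of 3 libraries). Against Drp1SG it was 0.51 ± 0.23 higher, with no overlap of libraries, and not called (adjusted p = 0.189). The call was made in 3 of 21 alternatives: with only these 2 genotypes in the fit (adjusted p = 0.0121), without SOD2i replicate 1 (adjusted p = 0.0384), and with a maternal covariate described below (log2 0.81, adjusted p = 0.000984). The interaction, the log2 change of Drp1SG;SOD2i beyond the sum of the single changes, was 2.44 ± 0.33 (adjusted p = 0.00038). If the changes of the single genotypes had multiplied, cib would have stood at 13.6 CPM in Drp1SG;SOD2i, against the 74.0 CPM measured. Leaving out each of the 12 libraries in turn kept the interaction between 2.22 and 2.82 and its adjusted p at or under 0.00226.

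**Figure D2:**
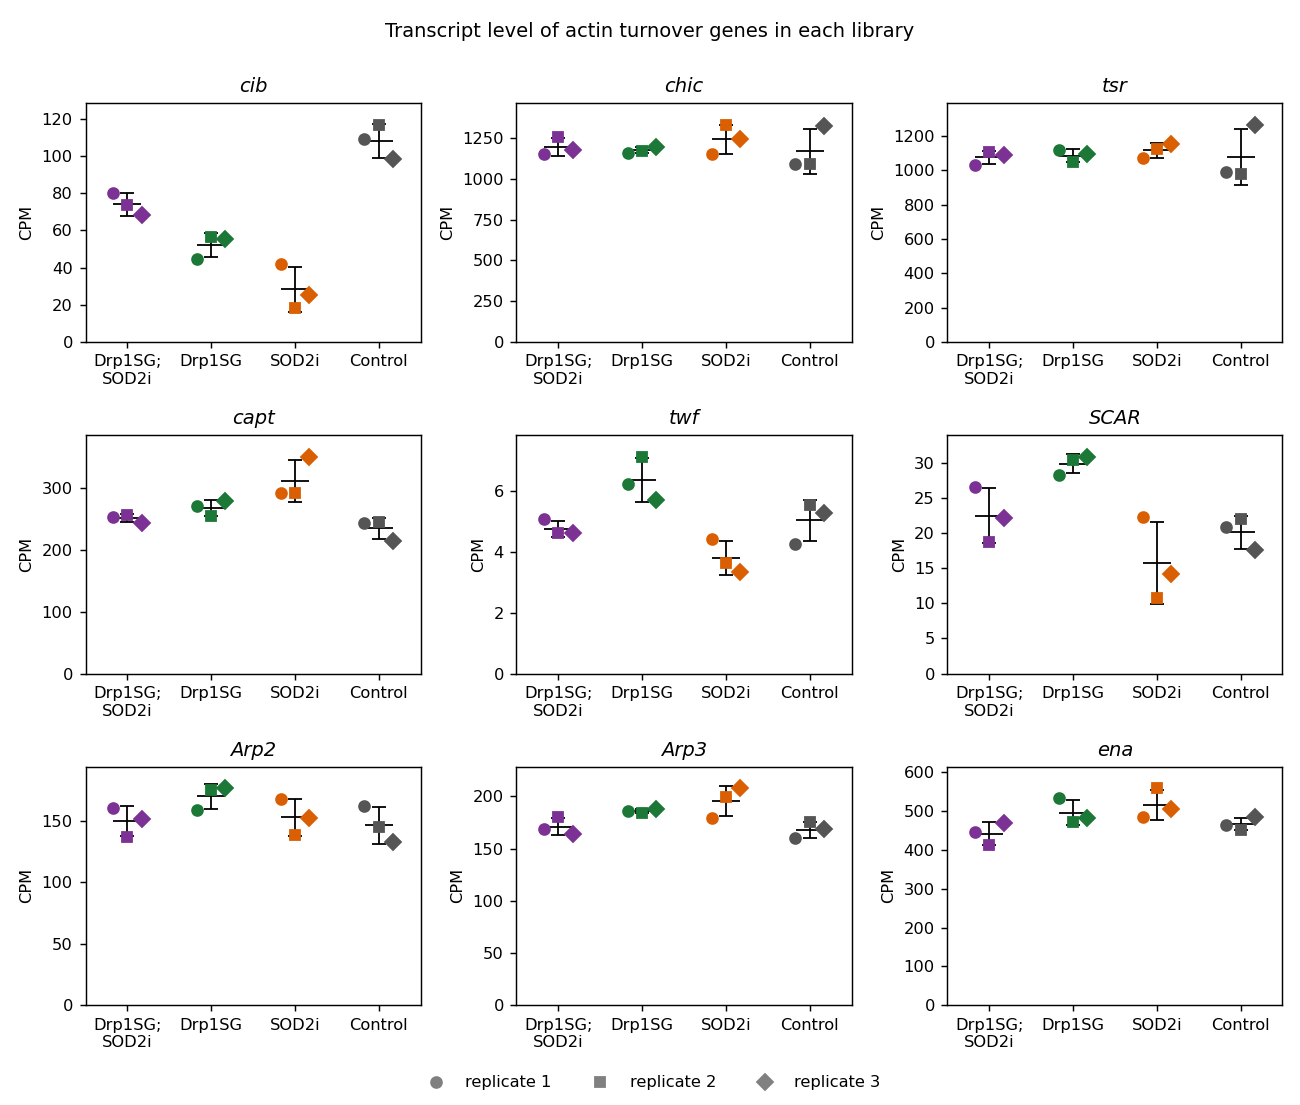
CPM of 9 members in each of the 12 libraries, by genotype (Drp1SG;SOD2i, Drp1SG, SOD2i, Control), with marker shapes for replicate numbers and black bars for the mean ± SD. For cib all Control libraries lie at 98.3 CPM or above and all SOD2i libraries at 41.7 CPM or below, whereas chic and tsr overlap across genotypes.

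The abundant monomer-handling genes chic and tsr did not pass the test in any comparison. chic encodes profilin, which charges monomers for assembly, and tsr encodes cofilin, which severs and disassembles ageing filaments. The level of chic was 1151, 1256 and 1178 CPM in Drp1SG;SOD2i, 1162, 1174 and 1195 CPM in Drp1SG, 1155, 1333 and 1245 CPM in SOD2i, and 1091, 1092 and 1326 CPM in Control. For tsr the range was 1030 to 1107 CPM in Drp1SG;SOD2i, 1047 to 1118 CPM in Drp1SG, 1071 to 1156 CPM in SOD2i and 977 to 1266 CPM in Control. All groups overlapped for both genes, and Control replicate 3 was the highest of its group in each. Their log2 fold changes against Control lay between -0.004 and 0.09, and their interactions were -0.07 ± 0.12 for chic and -0.07 ± 0.13 for tsr (adjusted p = 0.764 and 0.792). Several of these small values changed sign with the scaling.

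capt, which encodes cyclase-associated protein, a factor that strips cofilin from monomers and recharges them, was highest in SOD2i. It had 254, 256 and 244 CPM in Drp1SG;SOD2i, 271, 255 and 280 CPM in Drp1SG, 292, 293 and 351 CPM in SOD2i, and 244, 246 and 215 CPM in Control. All SOD2i libraries were above all others, with replicate 3 the highest of the series. capt rose in SOD2i by 0.41 ± 0.08 on the log2 scale against Control (adjusted p = 0.00381, 0.42 with adjusted p = 0.0201 in the authors' deposited table). In Drp1SG all 3 libraries were above Control, yet the difference of 0.19 ± 0.08 was not called (adjusted p = 0.126), and Drp1SG;SOD2i differed from Control by 0.10 ± 0.08 (adjusted p = 0.506). Of the exon bases of capt, 2.69% overlap Vps29 on the opposite strand. Vps29 averaged 40.0, 34.9, 47.3 and 41.2 CPM in Drp1SG;SOD2i, Drp1SG, SOD2i and Control, and was not called in any comparison. The part of Vps29 in the capt values was not tested.

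Unlike cib, capt was lower in Drp1SG;SOD2i than in SOD2i, at -0.31 ± 0.08 on the log2 scale (adjusted p = 0.0211). That call was lost in 6 of 21 alternatives: without SOD2i replicate 3 (log2 -0.21, adjusted p = 0.108), without any 1 of the Drp1SG;SOD2i libraries (adjusted p = 0.0597 to 0.0932), with only these 2 genotypes in the fit (adjusted p = 0.0874) and with a filter of 1 CPM in 3 libraries (adjusted p = 0.0546). The interaction of capt was -0.50 ± 0.12 (adjusted p = 0.0114), and its adjusted p stayed at or under 0.0409 when any 1 library was left out. The product of the single changes would give 357 CPM in Drp1SG;SOD2i, against the 251 CPM measured. Against Drp1SG alone the difference was -0.09 ± 0.08 (adjusted p = 0.517). The ventral furrow genes described above moved as a sum in the same direction as capt, and as Arp3 below, in SOD2i against Control and in Drp1SG;SOD2i against SOD2i, without overlap of their summed levels. In SOD2i against Control, T48 averaged slightly lower (46.5 against 47.6 CPM). In Drp1SG and in Drp1SG;SOD2i against Control the sum was lower without overlap, whereas capt and Arp3 had positive log2 fold changes that were not called. There fog went against the sum, averaging 99.7 CPM in Drp1SG and 89.3 CPM in Drp1SG;SOD2i against 82.3 CPM in Control. The part of the ventral furrow genes in these values was not tested.

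twf encodes twinfilin, which binds monomers and filament ends, and was the scarcest member with reads. It had 5.06, 4.60 and 4.61 CPM in Drp1SG;SOD2i, 6.23, 7.12 and 5.70 CPM in Drp1SG, 4.41, 3.64 and 3.34 CPM in SOD2i, and 4.26, 5.52 and 5.28 CPM in Control. Drp1SG was above every other group without overlap, and SOD2i overlapped Control only through Control replicate 1. No difference was called: the log2 fold change against Control was 0.34 ± 0.15 in Drp1SG (adjusted p = 0.137), -0.40 ± 0.15 in SOD2i (adjusted p = 0.0739) and -0.08 ± 0.15 in Drp1SG;SOD2i (adjusted p = 0.784). The SOD2i difference passed without SOD2i replicate 1 (log2 -0.51, adjusted p = 0.0305), without Control replicate 1 (log2 -0.51, adjusted p = 0.0363) and with a filter of 1 CPM in 3 libraries (adjusted p = 0.0497). Of the exon bases of twf, 22.7% overlap 140up on the opposite strand, and the strand setting of the counting is not stated, so reads of the pair may not be separable. 140up averaged 7.40, 8.20, 7.13 and 11.1 CPM in Drp1SG;SOD2i, Drp1SG, SOD2i and Control, and was lower in SOD2i than in Control (log2 -0.64 ± 0.20, adjusted p = 0.0376).

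Of the genes that start branched filaments, Arp3 rose modestly in SOD2i while Arp2, its partner in the Arp2/3 complex, was not called. Arp3 had 169, 180 and 164 CPM in Drp1SG;SOD2i, 186, 184 and 188 CPM in Drp1SG, 180, 200 and 208 CPM in SOD2i, and 160, 175 and 168 CPM in Control. Both single genotypes lay above Control without overlap, and Drp1SG;SOD2i overlapped Control. The log2 fold change was 0.22 ± 0.07 in SOD2i (adjusted p = 0.0334), 0.15 ± 0.07 in Drp1SG (adjusted p = 0.155) and 0.02 ± 0.07 in Drp1SG;SOD2i (adjusted p = 0.852). The SOD2i call was lost in 7 of 21 alternatives: under upper-quartile scaling (log2 0.15, adjusted p = 0.228), with only these 2 genotypes in the fit (adjusted p = 0.15), with a filter of 1 CPM in 3 libraries (adjusted p = 0.054), without SOD2i replicates 2 or 3 (adjusted p = 0.0798 and 0.105) and without Control replicates 1 or 3 (adjusted p = 0.0873 and 0.0835). The authors' deposited table gives it an adjusted p of 0.166.

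The interaction of Arp3 was -0.34 ± 0.09 (adjusted p = 0.0287), the product of the single changes giving 217 CPM against 171 CPM measured in Drp1SG;SOD2i. It too was lost under upper-quartile scaling (log2 -0.24, adjusted p = 0.182) and without any 1 of 9 of the 12 libraries, with adjusted p values of up to 0.0651. Against SOD2i the difference of Drp1SG;SOD2i was -0.20 ± 0.07 (adjusted p = 0.0617), and 4 of 21 alternatives called it, with adjusted p values from 0.0212 to 0.0472.

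Arp2 encodes the actin-like subunit that pairs with Arp3 at the root of each branch. It had 160, 137 and 152 CPM in Drp1SG;SOD2i, 158, 175 and 176 CPM in Drp1SG, 168, 138 and 152 CPM in SOD2i, and 162, 144 and 132 CPM in Control. The groups overlapped in every comparison with Control. Its highest log2 fold change against Control was 0.21 ± 0.10, in Drp1SG (adjusted p = 0.148), and its interaction was -0.24 ± 0.14 (adjusted p = 0.264).

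SCAR encodes the activator through which Rac signals reach the Arp2/3 complex. It had 26.6, 18.8 and 22.1 CPM in Drp1SG;SOD2i, 28.3, 30.5 and 30.9 CPM in Drp1SG, 22.2, 10.8 and 14.2 CPM in SOD2i, and 20.8, 22.0 and 17.5 CPM in Control. Drp1SG lay above all 9 other libraries, and SOD2i spread from below all Control libraries to above them. The Drp1SG mean was 149% of Control, a log2 fold change of 0.57 ± 0.22 that was not called (adjusted p = 0.0917). It was called with only these 2 genotypes in the fit (adjusted p = 0.0135), without SOD2i replicates 1 or 2 (adjusted p = 0.0223 and 0.0371) and in the authors' deposited table (adjusted p = 0.000176). In SOD2i the log2 fold change was -0.35 ± 0.22 (adjusted p = 0.281), and without SOD2i replicate 1 it was -0.67 (adjusted p = 0.0185).

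A stretch of 6.13% of the exon bases of SCAR overlaps piwi, a germline gene whose RNA is loaded into the egg, on the opposite strand. piwi had 47.0, 35.8 and 39.1 CPM in Drp1SG;SOD2i, 48.6, 57.0 and 56.3 CPM in Drp1SG, 50.0, 28.7 and 34.3 CPM in SOD2i, and 33.2, 33.2 and 25.5 CPM in Control. Its level was also highest on average in Drp1SG (log2 0.82 ± 0.19 against Control, adjusted p = 0.011). Its part in the SCAR values was not tested.

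ena encodes the Ena/VASP protein that protects growing filament ends. It had 446, 411 and 468 CPM in Drp1SG;SOD2i, 533, 473 and 482 CPM in Drp1SG, 485, 558 and 504 CPM in SOD2i, and 464, 451 and 483 CPM in Control. SOD2i was just above Control and clear of Drp1SG;SOD2i, which also lay below Drp1SG. No difference was called, with log2 values of 0.15 ± 0.07 for SOD2i against Control (adjusted p = 0.183), -0.22 ± 0.07 for Drp1SG;SOD2i against SOD2i (adjusted p = 0.0533) and -0.31 ± 0.10 for the interaction (adjusted p = 0.0618). The difference from SOD2i passed in 6 of 21 alternatives (adjusted p = 0.0274 to 0.0497), and the interaction passed in 5 of 20 (adjusted p = 0.00504 to 0.0497). With the maternal covariate described below, the differences of SOD2i from Control (adjusted p = 0.0369) and of Drp1SG;SOD2i from Drp1SG (adjusted p = 0.0175) also passed.

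Fim, which encodes the filament bundler fimbrin, is listed at 0 in all 12 libraries and was not tested. A count of 0 allows up to 3 counts, or 0.0314 to 0.0499 CPM per library, for counting error only. Of the genes in the count matrix, 4597 of 17868 are listed at 0 throughout, among them HisRS, SmE and RpL41, which every cell uses, and these 3 were picked after their values were seen. The 0 of Fim is given as listed, and whether its RNA was absent from the embryos was not tested.

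**Figure D3:**
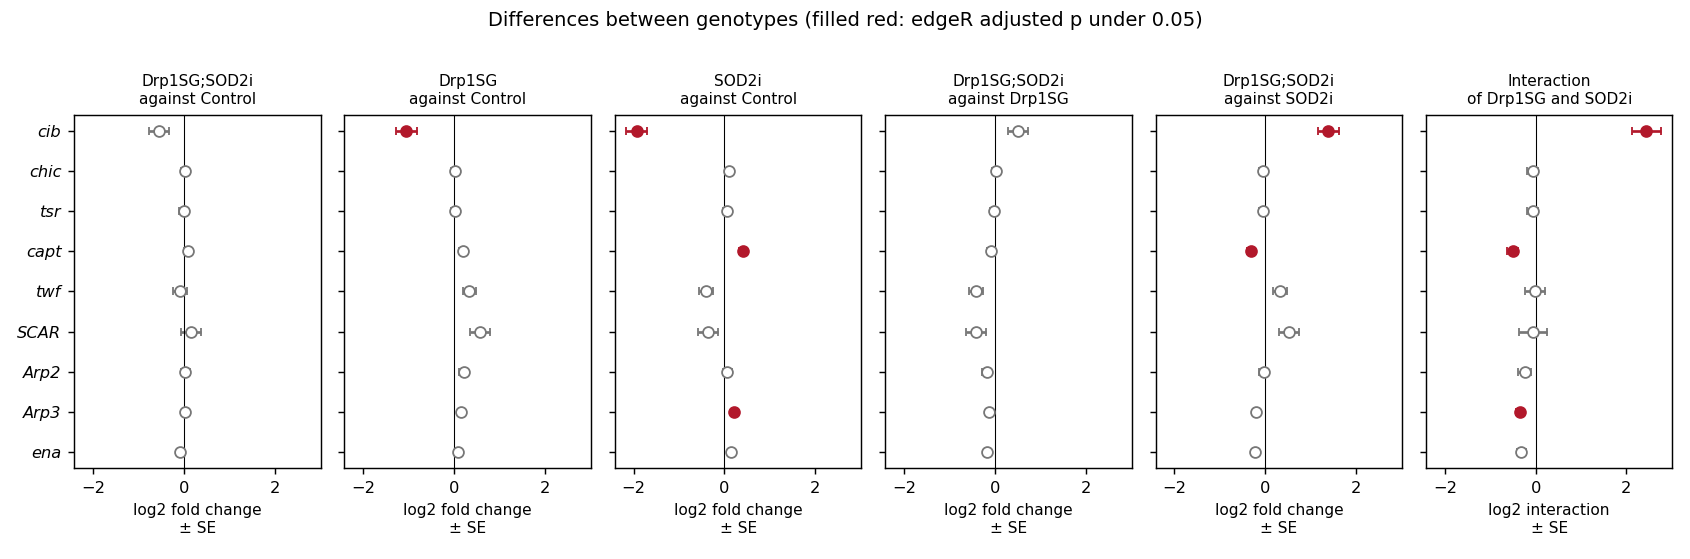
Log2 differences ± SE of 9 members in 5 comparisons and the interaction of Drp1SG and SOD2i, with filled red points for an adjusted p under 0.05 in edgeR. The filled points are cib in 4 panels, capt in 3 and Arp3 in 2, and cib lies on the other side of 0 from capt and Arp3 in SOD2i against Control and in the interaction.

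Counted over the 9 members tested, 1 was called in Drp1SG against Control, cib, which fell, where 18.6% of all genes tested were called (9.72% higher and 8.83% lower). In SOD2i against Control 2 rose (capt and Arp3) and 1 fell (cib), with 23.2% of all genes called (10.3% higher and 12.8% lower). In Drp1SG;SOD2i against Control none was called by edgeR, with 1 member at an unadjusted p under 0.05 and 0 called by DESeq2 or by limma with voom, and 8.91% of all genes were called (4.62% higher and 4.29% lower). Against Drp1SG none was called by edgeR, DESeq2 or limma with voom, 3 members had an unadjusted p under 0.05 in edgeR, and 10.9% of all genes were called (5.05% higher and 5.82% lower). Against SOD2i 1 was higher (cib) and 1 lower (capt), with 19.3% of all genes called (10.5% higher and 8.79% lower). The interaction was called for 1 member upward and 2 downward, with 16.5% of all genes called (9.2% upward and 7.34% downward). With 9 genes tested, these counts do not set the members apart from other genes. The median log2 fold change of the members against Control was 0.02 in Drp1SG;SOD2i, 0.15 in Drp1SG and 0.06 in SOD2i, beside medians of 0.005, 0.007 and 0.004 over all genes tested.

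Groups that did not overlap were more frequent than calls. Against Control, 1 member in Drp1SG;SOD2i, 5 in Drp1SG and 4 in SOD2i had no overlap of libraries, where 30.2%, 38.5% and 34.1% of all genes tested had none. Drp1SG;SOD2i did not overlap Drp1SG for 5 members and did not overlap SOD2i for 4, beside 39.1% and 37.2% of all genes. The comparisons with Control share the Control libraries.

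Transcripts that the mother loads into the egg and the embryo clears varied among libraries, and the levels of several members varied with them. The mean log2 CPM of 12 such transcripts was 5.14, 4.72 and 4.79 in Drp1SG;SOD2i, 5.17, 5.66 and 5.68 in Drp1SG, 5.33, 3.62 and 4.92 in SOD2i, and 4.75, 4.63 and 3.64 in Control. All Drp1SG libraries were above all Control libraries, by 1.16 on average (exact permutation test, two-sided, p = 0.1, and no smaller p is possible with 3 libraries a group). SOD2i replicate 2 and Control replicate 3 were the lowest. Their summed level was 1347 to 1807 CPM in Drp1SG;SOD2i, 1678 to 2336 CPM in Drp1SG, 821 to 1924 CPM in SOD2i and 729 to 1499 CPM in Control, and 5 of the 12 were called higher in Drp1SG than in Control and 1 in SOD2i.

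Within genotypes, the deviations of cib from its group means followed those of the maternal transcripts over the 12 libraries (Pearson's r = 0.85, permutation p = 0.0204; Spearman coefficient 0.73, permutation p = 0.0279). The same held for Arp2 (r = 0.86, permutation p = 0.00086; Spearman coefficient 0.82, permutation p = 0.016) and SCAR (r = 0.86, permutation p = 0.00723; Spearman coefficient 0.78, permutation p = 0.00717), whereas chic ran the other way (r = -0.83, permutation p = 0.0171; Spearman coefficient -0.78, permutation p = 0.0234). ena also ran the other way by r (-0.70, permutation p = 0.022) but less so by rank (Spearman coefficient -0.53, permutation p = 0.116). Without the 2 libraries farthest from the median, r was 0.79 for cib, 0.82 for Arp2, 0.78 for SCAR, -0.67 for chic and -0.52 for ena. These are 5 of 9 relations computed. With Benjamini-Hochberg adjustment over the 9, no Spearman coefficient passed (lowest adjusted permutation p = 0.0628), whereas the 5 Pearson values had adjusted permutation p values of 0.00774 to 0.0396. The permutation p values are two-sided, permutations were made within genotypes, and the libraries share their group means and scaling. Such r values are common here, since 9.71%, 8.69% and 9.1% of all genes tested had an r at least as high as those of cib, Arp2 and SCAR, and 6.84% one at least as low as that of chic.

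With the maternal mean as a covariate in the fit, the log2 fold change of cib against Control was -0.82 in Drp1SG;SOD2i (adjusted p = 0.00159), -1.63 in Drp1SG (adjusted p = 2.32e-05) and -2.14 in SOD2i (adjusted p = 1.05e-07), each larger in size than without the covariate. Every Drp1SG library had a higher maternal mean than every Control library, so genotype and maternal mean cannot be fully told apart there. The values of this fit give differences at an equal maternal mean, which the Drp1SG and Control libraries did not share. The interaction of cib was 2.95 (adjusted p = 3.47e-07). The Drp1SG value of SCAR moved to 0.04 (adjusted p = 0.889), and its SOD2i value moved to -0.53 (adjusted p = 0.00464). capt kept its SOD2i value at 0.39 (adjusted p = 0.0014). Germ plasm transcripts also stood higher in Drp1SG, with 3 of 5 called against Control and a summed level of 122 to 173 CPM, against 46.9 to 108 CPM in Control, and their part in these values was not tested.

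**Figure D4:**
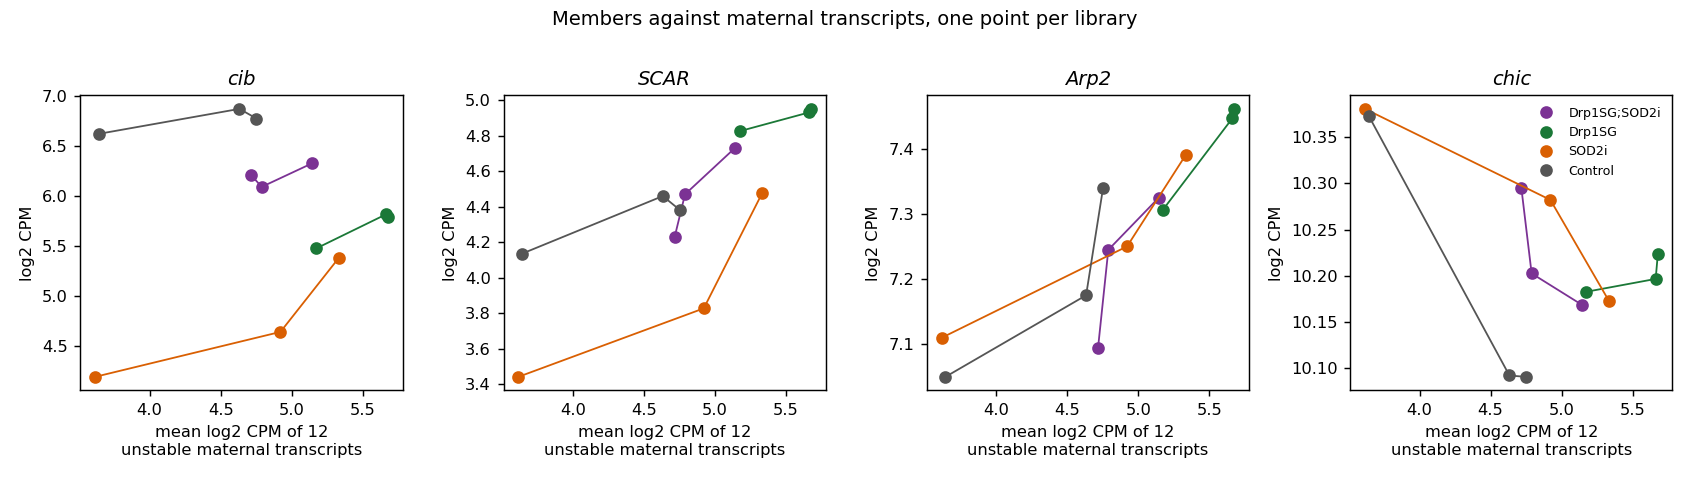
Log2 CPM of cib, SCAR, Arp2 and chic against the mean log2 CPM of the 12 maternal transcripts, 1 point per library, with lines joining the libraries of a genotype. Within genotypes cib, Arp2 and SCAR rise with the maternal mean (r = 0.85, 0.86 and 0.86) and chic falls (r = -0.83).

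Over the 12 libraries, genotype differences included, the 5 named genes most like cib in log2 CPM by Pearson's r were Lcch3 (0.96), dao (0.95), HisCl1 (0.94), IA-2 (0.94) and mia (0.94). mia had means of 22.2 CPM in Drp1SG;SOD2i, 19.9 CPM in Drp1SG, 12.8 CPM in SOD2i and 30.2 CPM in Control, the same order of genotypes as cib, while the other 4 averaged at most 7.01 CPM in any genotype. Lcch3 was the scarcest, with 0.569 CPM in Control and 0.0646 CPM in SOD2i. The latter is close to the 0.0314 to 0.0499 CPM that a count of 0 allows, so its r rests on few reads. Nearest to capt were Pgam5 (0.97), Sod1 (0.96), Rcd5 (0.95), grau (0.94) and LysRS (0.94), and nearest to Arp3 were Ude (0.95), AdSS (0.94), GILT2 (0.92), Alp10 (0.92) and Gr59e (0.91). Sod1, the cytosolic superoxide dismutase gene, had means of 128, 134, 155 and 123 CPM in Drp1SG;SOD2i, Drp1SG, SOD2i and Control. Among the members themselves, r was 0.86 for chic with tsr, 0.84 for capt with Arp3 and 0.83 for SCAR with twf, and cib ran opposite to Arp3 (-0.85) and capt (-0.83).

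The members were set beside 59 other genes of the actin machinery, 57 of which were tested. Against Control, 3 of these rose and 2 fell in Drp1SG;SOD2i, 3 rose and 2 fell in Drp1SG, and 9 rose and 4 fell in SOD2i. The interaction was called upward for 2 and downward for 5. In all, 8.77%, 8.77% and 22.8% of the 57 were called in Drp1SG;SOD2i, Drp1SG and SOD2i against Control and 12.3% in the interaction, beside 8.91%, 18.6%, 23.2% and 16.5% of all genes tested, so none of these shares was above that of all genes. In SOD2i against Control the capping, severing and disassembly genes had 3 of 13 called, all higher (4 with an unadjusted p under 0.05), the SCAR complex and other Arp2/3 activators 1 of 9 higher and 1 lower, the other Arp2/3 subunits 1 of 6 each way, and the cross-linkers 1 of 10 each way. limma with voom gave the same counts for these 4 lists, and DESeq2 called 3 cross-linkers higher and 2 Arp2/3 subunits lower, with its other counts the same.

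Tm1, a tropomyosin gene whose product coats filaments and shields them from cofilin, was lower in both single genotypes, as cib was, and stood at the Control level in Drp1SG;SOD2i. It had 840, 829 and 849 CPM in Drp1SG;SOD2i, 474, 476 and 493 CPM in Drp1SG, 491, 556 and 510 CPM in SOD2i, and 857, 798 and 894 CPM in Control. The single genotypes were far below Control, and Drp1SG;SOD2i lay within its range. Its log2 fold change against Control was -0.82 ± 0.06 in Drp1SG (adjusted p = 5.96e-06) and -0.71 ± 0.06 in SOD2i (adjusted p = 1.14e-05), against -0.02 ± 0.06 in Drp1SG;SOD2i (adjusted p = 0.887), and the interaction was 1.51 ± 0.09 (adjusted p = 4.91e-07).

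cpb, the beta subunit of the capping protein that blocks filament growth, was higher in all 3 other genotypes than in Control, with adjusted p values from 4.51e-05 to 0.00432, and had its highest mean in SOD2i. It averaged 146 ± 8.33 CPM in Drp1SG;SOD2i, 142 ± 3.85 CPM in Drp1SG, 176 ± 10.2 CPM in SOD2i and 111 ± 6.63 CPM in Control, with an interaction of -0.63 ± 0.10 (adjusted p = 0.00122). The gene of the alpha subunit, cpa, was not called against Control in Drp1SG;SOD2i, Drp1SG or SOD2i (adjusted p = 0.921, 0.527 and 0.381). Gel, which encodes the filament-severing gelsolin, rose in SOD2i (43.1 ± 1.26 CPM against 33.8 ± 1.29 CPM in Control, adjusted p = 0.00263) and fell in Drp1SG;SOD2i (27.7 ± 0.301 CPM, adjusted p = 0.0209). Rac1, the GTPase upstream of SCAR, rose to 248 ± 4.86 CPM in Drp1SG (adjusted p = 0.0325) and to 269 ± 8.75 CPM in SOD2i (adjusted p = 0.00226), against 217 ± 9.24 CPM in Control.

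Within the Arp2/3 complex some subunits were called and others were not, and no test compared the subunits with each other. Arpc1 fell in Drp1SG (59.8 ± 3.41 CPM against 73.8 ± 2.88 CPM in Control, adjusted p = 0.025) and was higher in Drp1SG;SOD2i (85.8 ± 4.09 CPM) than in Drp1SG (log2 0.52 ± 0.08, adjusted p = 0.00214). Arpc5 rose in SOD2i (log2 0.25 ± 0.08, adjusted p = 0.0496), with libraries that overlapped Control. Arpc3B, a scarce paralogue, fell in SOD2i (0.139 ± 0.0683 CPM against 0.67 ± 0.177 CPM in Control, adjusted p = 0.017). The remaining subunits in the list of other Arp2/3 subunits were not called against Control in any genotype. WASp, another activator of the complex, rose in Drp1SG (40.8 ± 0.49 CPM against 33.7 ± 1.70 CPM in Control, adjusted p = 0.0325), and Cortactin rose in SOD2i (log2 0.38 ± 0.08, adjusted p = 0.00359). Of the formins and spire, which start unbranched filaments, edgeR called none of 7 in any comparison, with up to 2 at an unadjusted p under 0.05 in each, and limma with voom called none. DESeq2 called 1 of them higher in Drp1SG;SOD2i and 1 in SOD2i against Control, 1 lower in Drp1SG;SOD2i than in Drp1SG, and 1 downward in the interaction.

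The actin genes themselves were called once by edgeR. Act57B, a muscle actin, was higher in Drp1SG;SOD2i than in SOD2i (edgeR adjusted p = 0.0264), with 4.42, 20.8 and 1.12 CPM in Drp1SG;SOD2i against 0.212, 0.125 and 0.140 CPM in SOD2i. In this comparison DESeq2 called 1 actin gene, and limma with voom called 0 and had 0 at an unadjusted p under 0.05. DESeq2 also called 1 higher in Drp1SG;SOD2i than in Control. Replicate 2 of Drp1SG;SOD2i was far above the other libraries, and the same library was highest for a list of 6 markers of later, differentiated embryos, whose summed level was 9.29 to 35.2 CPM in Drp1SG;SOD2i against 6.32 to 8.19 CPM in SOD2i, with 3 called higher and 1 lower. The mean log2 CPM of these 6 markers was also above Control without overlap in Drp1SG;SOD2i (by 1.25), Drp1SG (by 1.22) and SOD2i (by 0.63), with 2, 2 and 1 of the 6 called higher and none lower. Their summed level in SOD2i overlapped Control (6.32 to 8.19 against 6.91 to 7.79 CPM). There elav averaged 1.29 CPM against 0.0317 CPM in Control, repo and wupA were slightly higher, and nSyb, Mhc and Mlc2 averaged lower than in Control. The part of these 6 markers in the Act57B value and in the members' values was not tested.

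**Figure D5:**
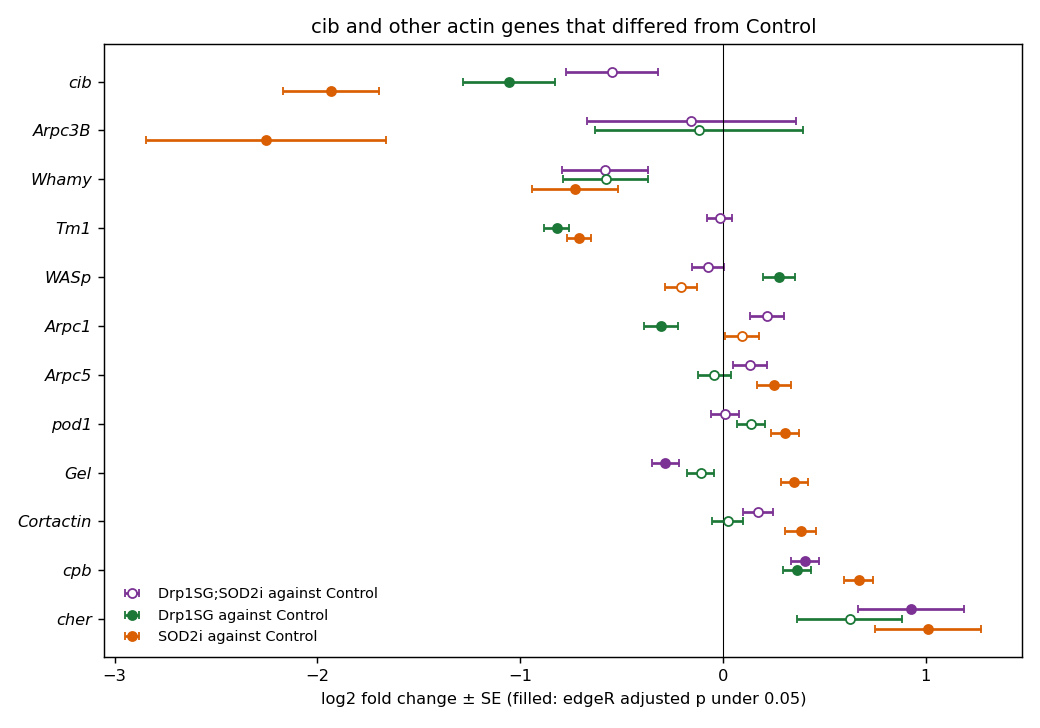
Log2 fold change ± SE against Control of cib and of genes called in at least 1 genotype from the actin lists whose SOD2i counts are given above, for Drp1SG;SOD2i, Drp1SG and SOD2i, with filled points for an adjusted p under 0.05 in edgeR. Tm1 falls in both single genotypes but is at Control level in Drp1SG;SOD2i, and cpb is higher in all 3.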

How the data were processed

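RNA was sequenced from 12 libraries, from which the authors made the deposited matrix of gene counts, whole and unscaled. Among the tools in the submitters' processing notes are featureCounts 1.5.2, HISAT2 2.1.0, Bowtie2 2.2.4, DESeq2 and Trimmomatic; their settings are unstated. Build and strand setting are not given in the sources used here, so no coordinates are printed, and reads of overlapping genes on opposite strands may not be separable. Each genotype's own comparison with control, deposited by the authors, gives log2 fold changes and p-values made with DESeq2, per the file headers.

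Counts were fitted in R 4.3.3 with edgeR 4.0.16 (filterByExpr, TMM scaling, quasi-likelihood F test, all 12 libraries, 1 mean per genotype), which tested 9863 genes. Fold changes compare Drp1SG, SOD2i and Drp1SG;SOD2i with Control, Drp1SG;SOD2i with each single genotype, and the interaction. The common biological coefficient of variation was 0.1755. Log2 CPM used a prior count of 2, and per-kilobase levels used exon lengths of the Ensembl BDGP6 annotation. The fit was tested on simulated data. Relations to maternal transcripts used 100000 permutations within genotypes. Each library was left out in turn, and other alternatives were fits of only the groups compared, with a replicate block or a maternal covariate, limma 3.58.1 with voom, the Wald test and the size factors of DESeq2 1.42.0, scaling to the upper quartile, and either no filter or at least 1 CPM in 3 libraries.

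All members are named. Of the other actin genes, up to 3 called genes per list and comparison with the smallest adjusted p were eligible, and the 5 named genes with the highest r for cib, capt and Arp3. The uncalled cpa was added beside cpb as the other subunit of the same protein. The members and gene lists were chosen with earlier results of these data known. The counts of 1 of the lists of other actin genes are not reported here.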

Additional observations from a re-analysis of the deposited data

Results flagged for a closer look

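cib differed between backgrounds: it was lower in Drp1SG than in Control but higher in Drp1SG;SOD2i than in SOD2i, and the interaction was 2.44 on the log2 scale (edgeR adjusted p = 0.00038, 74.0 CPM in Drp1SG;SOD2i against 28.3 CPM in SOD2i).

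capt differed the other way, with an interaction of -0.50 on the log2 scale (edgeR adjusted p = 0.0114, 251 CPM in Drp1SG;SOD2i against 312 CPM in SOD2i).

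Arp3 had an interaction of -0.34 on the log2 scale (edgeR adjusted p = 0.0287, 171 CPM in Drp1SG;SOD2i against 196 CPM in SOD2i), and that call was lost under upper-quartile scaling and without any 1 of 9 of the 12 libraries.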

How the results depend on the processing

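Of 1125 comparisons of a member's log2 fold change under an alternative with its reported value, 1004 kept both direction and side of the threshold, 35 gained a call, 23 lost one and 63 changed sign, and 0 of those 63 were called either way. The calls of cib in Drp1SG, in SOD2i, in Drp1SG;SOD2i against SOD2i and in the interaction held under every alternative run. The cause of the changes below was not tested.

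With only the groups compared in the fit, 2 members were called in Drp1SG against Control, 1 in Drp1SG;SOD2i against Control, 3 against Drp1SG and 1 against SOD2i, and all genes called were 1263 in SOD2i against Control and 1848 in Drp1SG;SOD2i against Drp1SG. With the maternal covariate, 5 members were called in SOD2i against Control, 1 in Drp1SG;SOD2i against Control, 2 against Drp1SG and 5 against SOD2i, with 2548 genes called in Drp1SG;SOD2i against Drp1SG and 2719 in the interaction. In Drp1SG;SOD2i against SOD2i, 4 members were called with DESeq2 size factors, 4 with the DESeq2 Wald test and 1 with the 1 CPM filter. The DESeq2 Wald test called 1319 genes in Drp1SG;SOD2i against Control, against 879 by edgeR.

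Leaving out each library gave 1 to 2 members and 1112 to 2200 genes called in Drp1SG against Control, 2 to 5 members and 1587 to 2369 genes in SOD2i against Control, 0 to 1 members and 467 to 1110 genes in Drp1SG;SOD2i against Control, 0 to 1 members and 571 to 1261 genes against Drp1SG, 1 to 5 members and 1199 to 2112 genes against SOD2i, and 2 to 4 members and 1250 to 1711 genes in the interaction. The highest member counts were those without SOD2i replicate 1, shared with SOD2i replicate 2 in Drp1SG against Control. The lowest were those without SOD2i replicates 2 or 3 or Control replicate 3 in SOD2i against Control, and without SOD2i replicate 3 or Drp1SG;SOD2i replicates 1 or 2 in Drp1SG;SOD2i against SOD2i.

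Sign changes under upper-quartile scaling were chic -0.058, tsr -0.056 (Drp1SG against Control), tsr -0.029, Arp2 -0.012 (SOD2i against Control), chic -0.013, Arp2 -0.0069, Arp3 -0.016 (Drp1SG;SOD2i against Control), tsr 0.0073 (against Drp1SG), Arp2 0.0048 (against SOD2i), and chic 0.032, tsr 0.036, twf 0.085, SCAR 0.040 (interaction). With the maternal covariate they were Arp2 -0.0020 (Drp1SG against Control), tsr 0.073, Arp2 -0.068, SCAR -0.094 (Drp1SG;SOD2i against Control), chic -0.072 (against Drp1SG), and twf 0.030, SCAR 0.40 (interaction). With the 1 CPM filter they were tsr 0.011 (Drp1SG;SOD2i against Control), tsr 0.0045 (against Drp1SG), Arp2 0.017 (against SOD2i) and twf 0.039 (interaction). For Drp1SG;SOD2i against Control, tsr was 0.016 with no filter and 0.0066 with limma and voom, and Arp2 against SOD2i was 0.00048 with only the groups compared.

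Leave-one-out ranges that crossed 0 were chic -0.038 to 0.089, tsr -0.045 to 0.12 (Drp1SG against Control), tsr -0.0061 to 0.16, Arp2 -0.023 to 0.14 (SOD2i against Control), chic -0.018 to 0.12, tsr -0.062 to 0.11, twf -0.19 to 0.014, Arp2 -0.049 to 0.11, Arp3 -0.0091 to 0.074 (Drp1SG;SOD2i against Control), chic -0.0088 to 0.056, tsr -0.034 to 0.023 (Drp1SG;SOD2i against Drp1SG), Arp2 -0.10 to 0.047 (Drp1SG;SOD2i against SOD2i), twf -0.100 to 0.10, SCAR -0.25 to 0.27 (interaction).

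The labels do not say whether replicate numbers pair libraries, and no clear pairing was seen. Of 18 pairs with the same number, deviations from group means correlated at -0.27 to 0.22, and 6 pairs were over 0.1. Among the 12 libraries, 4 were closest to their own number. Whether libraries of the same number shared a preparation was not tested. With a replicate block 1, 3, 0, 0, 2 and 3 members were called in the order Drp1SG, SOD2i and Drp1SG;SOD2i against Control, Drp1SG;SOD2i against Drp1SG, against SOD2i, and the interaction, with 1642, 2095, 704, 882, 1669 and 1423 genes, and the value of tsr in Drp1SG;SOD2i against Control was 0.0022.

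The low counts of twf (233 to 681 per library) limit the precision of its fold changes, and an uncalled value does not show that groups were alike. Upper-quartile scaling moved the median of all genes by at most 0.0965.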
